A study of Mus musculus with 6 samples.

Results

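The T helper 1 genes described here are 9 mouse genes taken by symbol: Tbx21, Ifng, Eomes, Stat4, Il12rb1, Il12rb2, Il18r1, Il18rap and Ifngr1. They were found by Ensembl identifier among 54446 gene rows, and all 9 were listed. After a filter on low counts 13172 genes were left for testing, with 8 of the 9 among them. Eomes did not pass the filter, and its counts are given without a test.

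The RNA came from tumour-infiltrating regulatory T cells (Treg cells), a CD4 T cell type that depends on the transcription factor Foxp3 and holds immune responses in check, and libraries were made from total RNA. The cells were sorted live as CD45+ CD4+ Foxp3-GFP+ from tumours grown under the skin of the flank from B16F10, a melanoma line of mouse origin. The design compares libraries labelled Ythdf2 cKO (genotype Foxp3Cre Ythdf2 fl/fl, both alleles floxed, 3 libraries) with libraries labelled as wild-type controls. By genotype those controls are Foxp3Cre Ythdf2 fl/+, with 1 floxed allele (3 libraries). Both groups therefore carry the Cre recombinase driven by Foxp3, which acts where Foxp3 is expressed, so the groups differ in 1 floxed allele, and neither is free of Cre. The titles also place the libraries in 2 cages. Ythdf2 cKO replicates 2 and 3 and control replicate 3 came from cage 2, and Ythdf2 cKO replicate 1 and control replicates 1 and 2 came from cage 1. The labels do not state whether the libraries are from separate animals, and the p-values therefore measure only how far these samples spread, which can include technical variation. The age of the mice is not given in the sources used here.

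T helper 1 cells are the CD4 T cells that make IFN-gamma. IL-12, bound by the receptor chains Il12rb1 and Il12rb2, activates the transcription factor Stat4, and IL-18, bound by Il18r1 with its accessory chain Il18rap, adds to that signal. Tbx21, which encodes T-bet, is the master transcription factor of the programme, Eomes is its close relative, and Ifng is the cytokine gene they switch on. IFN-gamma signals back through the receptor chain Ifngr1. Treg cells can take on part of this programme in inflamed tissue and tumours, and T-bet-positive Treg cells are known to restrain T helper 1 responses.

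The libraries labelled Ythdf2 cKO held 5602053 to 9960861 gene counts and the controls 8923124 to 13602069. The 7 Treg-defining markers summed to 3845 to 6213 CPM (counts scaled to a common library size) in the libraries labelled Ythdf2 cKO and to 3404 to 6289 CPM in the controls, and none of the 7 was at 0 in all 6 libraries. The 15 melanoma markers summed to 2984 to 6041 CPM in cage 2 and to 63.4 to 630 CPM in cage 1. Ythdf2, the targeted gene, encodes a protein that binds mRNA carrying N6-methyladenosine (m6A) and promotes its decay. It stood at 90.1, 104 and 104 CPM in Ythdf2 cKO replicates 1, 2 and 3, against 124, 102 and 93.1 CPM in control replicates 1, 2 and 3. The groups overlapped, and the log2 fold change was -0.10 ± 0.16 (SE; adjusted p = 1 in the edgeR quasi-likelihood test). The counts cover the whole gene and not the floxed exons alone, so they do not check the deletion, and the group is called by its label throughout.

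The promoters of Ifng and Il12rb2 are shown because these members had the largest fitted differences between the groups. Each sequence is the RefSeq window around the annotated start, 300 bases long and mostly upstream of it, build GRCm38.p6, 5′ to 3′ on the gene's strand. Ifng is on the plus strand (chr10:118440796-118441095) and Il12rb2 on the minus strand (chr6:67376139-67376438). Capitals mark the letters TTCNNNGAA, the pattern that STAT proteins such as Stat4 are known to bind, and TCACAC, a core of the pattern that T-box proteins such as T-bet and Eomes are known to bind.
Ifng: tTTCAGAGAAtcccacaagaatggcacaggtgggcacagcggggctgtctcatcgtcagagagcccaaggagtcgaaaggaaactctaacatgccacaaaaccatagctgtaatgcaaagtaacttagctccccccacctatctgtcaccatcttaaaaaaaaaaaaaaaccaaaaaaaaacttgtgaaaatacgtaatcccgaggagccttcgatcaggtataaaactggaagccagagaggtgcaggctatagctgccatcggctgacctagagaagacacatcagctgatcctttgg
Il12rb2: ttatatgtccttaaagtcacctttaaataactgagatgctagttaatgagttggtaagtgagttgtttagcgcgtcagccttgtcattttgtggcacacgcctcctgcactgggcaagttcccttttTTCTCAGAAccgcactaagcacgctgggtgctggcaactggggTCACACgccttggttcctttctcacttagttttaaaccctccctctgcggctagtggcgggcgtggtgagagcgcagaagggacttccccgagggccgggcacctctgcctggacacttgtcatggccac
RefSeq windows were given for 8 of the 9 members, 11 windows in all, and Il12rb1 is named only. Windows of 3 members, Ifng, Il12rb2 and Il18r1, held TTCNNNGAA, which reads the same on both strands, and 8.3% of 32851 mouse windows held it. TCACAC, searched on both strands (GTGTGA on the other), was in the window of Il12rb2 alone among the members and in 14.5% of all windows. In Il12rb2 the matches start at bases 128 and 171 of the window and do not overlap. A match is a description of the letters and does not show binding.

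Because the targeted gene encodes an m6A reader, the letters GGACT, the best-known core of the sequences that carry m6A, were counted on the sense strand of the longest protein-coding transcript of each member. No m6A was measured in these libraries. Il12rb1 held 6 (2.09 per kilobase), Stat4 held 6 (2.01 per kilobase) and Tbx21 held 5 (2.01 per kilobase), and the median over 21877 genes was 1.01 per kilobase. Ifng, with the largest fitted difference below, held 0 in 1208 bases. Il12rb2 held 2 (0.67 per kilobase), Il18r1 held 2 (0.48), Il18rap held 1 (0.2), Ifngr1 held 3 (1.42) and Eomes held 4 (1.12). The 5 of Tbx21, the gene that defines the programme, are printed with the bases on each side, GGACT in capitals, 5′ to 3′ on the minus strand (GRCm38). The coordinates are those of the capitals, at chr11:97114768-97114772, chr11:97098905-97098909, chr11:97098506-97098510, chr11:97098479-97098483 and chr11:97098290-97098294, the first 2 in the coding sequence and the other 3 in the 3′ UTR.
Tbx21 site 1: ggccgcgcgaGGACTacgcattgcc
Tbx21 site 2: cagcgactcaGGACTaggcgaagga
Tbx21 site 3: aacggagaatGGACTccagagagtt
Tbx21 site 4: ggacccagagGGACTtcatggcttt
Tbx21 site 5: gactgcgggcGGACTgggccacctg

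Between the groups, none of the 8 tested T helper 1 genes passed the threshold, and each of the 9 had overlapping groups. Over all genes tested, the groups did not overlap in 3.4% with the libraries labelled Ythdf2 cKO higher and in 4.22% with them lower. All 8 fitted differences were above 0, from 0.06 for Il18rap to 0.96 for Ifng on the log2 scale, with a median of 0.29. The median of all genes tested was -0.0049, with 49.3% of them above 0. In the same edgeR test 0 of 13172 genes (0%) had a p under 0.05 after Benjamini-Hochberg adjustment, and DESeq2 and limma-voom also called 0. At an unadjusted p under 0.05 edgeR counted 213 genes (1.62%), with 0 of the 8 members among them. The sign shared by the members rested on Ythdf2 cKO replicate 1. Without that library the median was -0.01, and 4 members were above 0 and 4 below.

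**Figure D1:**
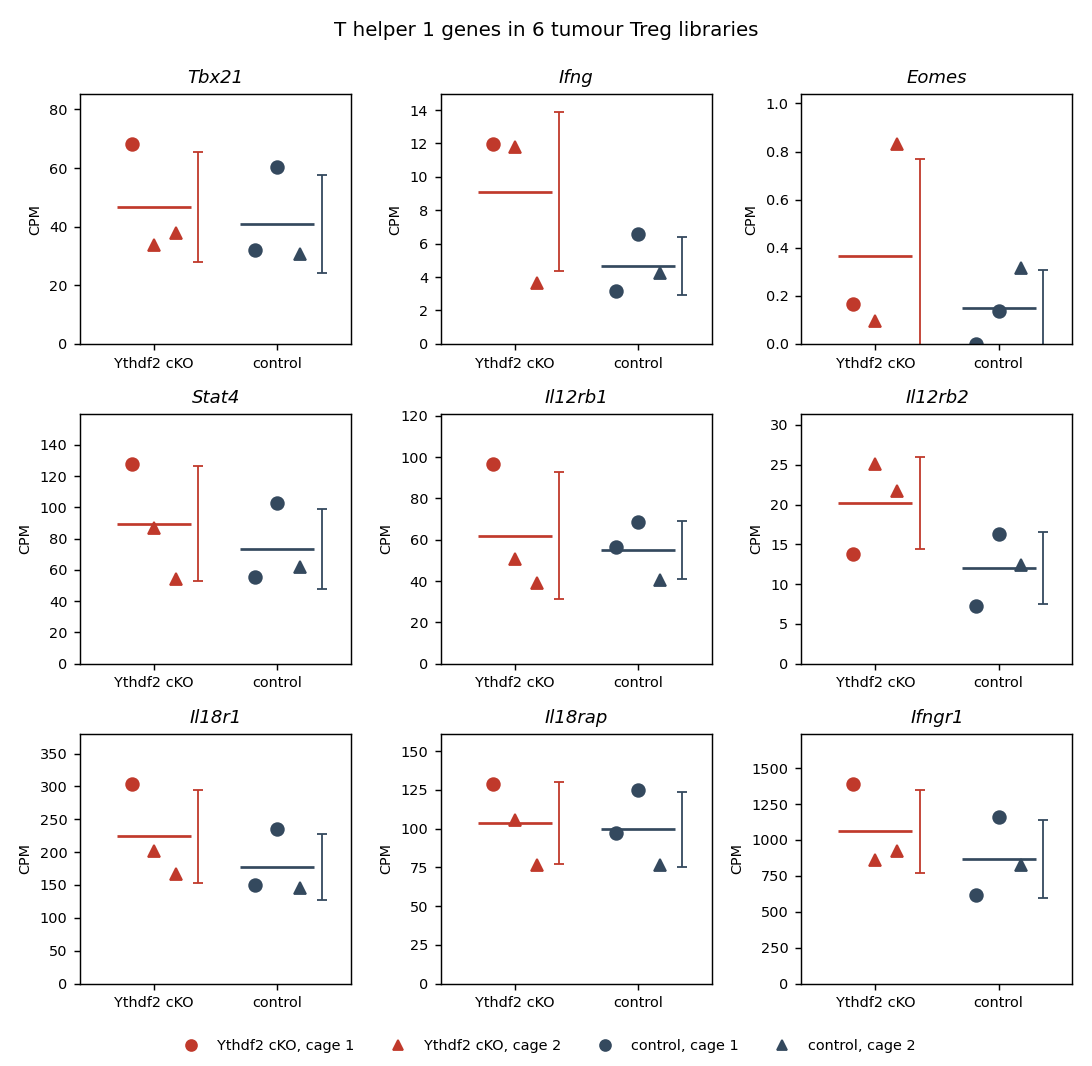
CPM (y axis) of each T helper 1 gene in the 3 libraries labelled Ythdf2 cKO (red, left) and the 3 controls (dark, right) of tumour Treg cells, with circles for cage 1 and triangles for cage 2, a line at each group mean and a bar of 1 SD beside it. The groups overlap in all 9 panels, and Ythdf2 cKO replicate 1, the red circle, is the highest library for Tbx21 (68.1 CPM), Stat4 (128 CPM), Il12rb1 (96.6 CPM), Il18r1 (304 CPM), Il18rap (129 CPM) and Ifngr1 (1390 CPM).

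Ifng (ENSMUSG00000055170, chr10:118441046-118445892, mm10) is the signature cytokine gene of T helper 1 cells. It had 12.0, 11.8 and 3.63 CPM in Ythdf2 cKO replicates 1, 2 and 3, from 73, 122 and 35 reads, against 3.18, 6.56 and 4.26 CPM in control replicates 1, 2 and 3, from 36, 97 and 27 reads. Ythdf2 cKO replicates 1 and 2 lay above all 3 controls, while Ythdf2 cKO replicate 3 lay below 2 of them. The means were 9.12 ± 4.75 CPM in Ythdf2 cKO-labelled libraries and 4.67 ± 1.73 CPM in the controls (SD, n = 3 each). The log2 fold change was 0.96 ± 0.57 (SE; 95% interval -0.37 to 2.28, edgeR unadjusted p = 0.13, adjusted p = 1). Ifng is also made by natural killer (NK) and CD8 T cells, and some of their markers had reads here. The 11 NK markers summed to 16.2, 16.5 and 29.2 CPM in Ythdf2 cKO replicates 1, 2 and 3 and to 8.57, 15.4 and 29.98 CPM in control replicates 1, 2 and 3, with Klrb1c and Klra4 at 0 in all 6 libraries. The NK list includes Fcgr3 and Tyrobp, which macrophages also express, and Ncr1, a defining NK marker, had reads in Ythdf2 cKO replicate 1 alone (0.819 CPM). The CD8 markers Cd8a and Cd8b1 summed to 24.9, 7.53 and 8.30 CPM in Ythdf2 cKO replicates 1, 2 and 3 and to 12.4, 9.54 and 11.2 CPM in control replicates 1, 2 and 3. Ythdf2 cKO replicate 1 was thus the highest library both in this sum and in Ifng. Most of its sum was Cd8b1, at 23.1 CPM. Cd8a was highest in control replicate 3, at 5.84 CPM, against 1.80 CPM in Ythdf2 cKO replicate 1. The part of NK and CD8 T cells in the Ifng values was not tested.

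The IL-12 receptor chains had different profiles across the libraries. Il12rb2 (ENSMUSG00000018341, chr6:67291318-67376188), the chain that carries the signal to Stat4, had 13.8, 25.1 and 21.7 CPM in Ythdf2 cKO replicates 1, 2 and 3, against 7.24, 16.2 and 12.5 CPM in control replicates 1, 2 and 3. Both cage 2 libraries labelled Ythdf2 cKO were above all controls, and Ythdf2 cKO replicate 1 lay between the controls of its own cage. The means were 20.2 ± 5.82 CPM in Ythdf2 cKO-labelled libraries and 12.0 ± 4.52 CPM in the controls (SD, n = 3 each), and the log2 fold change was 0.75 ± 0.39 (SE; 95% interval -0.15 to 1.66, edgeR unadjusted p = 0.091, adjusted p = 1). Il12rb1 (ENSMUSG00000000791, chr8:70808449-70821424), the chain shared with the IL-23 receptor, had 96.6, 50.5 and 38.9 CPM in Ythdf2 cKO replicates 1, 2 and 3, against 56.7, 68.4 and 40.4 CPM in control replicates 1, 2 and 3. Here the highest and the lowest library both carried the Ythdf2 cKO label. The log2 fold change was 0.16 ± 0.36 (SE; 95% interval -0.68 to 1.01, edgeR adjusted p = 1), and without Ythdf2 cKO replicate 1 it was -0.31.

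The IL-18 receptor chains lie near each other on chromosome 1. Il18r1 (ENSMUSG00000026070, chr1:40465552-40500854), the chain that binds IL-18, had 304, 202 and 167 CPM in Ythdf2 cKO replicates 1, 2 and 3, against 151, 235 and 145 CPM in control replicates 1, 2 and 3. The groups overlapped because control replicate 2 lay above 2 libraries labelled Ythdf2 cKO, and the log2 fold change was 0.34 ± 0.28 (SE; 95% interval -0.32 to 1.00, edgeR adjusted p = 1), or 0.054 without Ythdf2 cKO replicate 1. Il18rap (ENSMUSG00000026068, chr1:40515362-40551705), the accessory chain needed for signalling, had 129, 106 and 76.4 CPM in Ythdf2 cKO replicates 1, 2 and 3, against 97.1, 125 and 76.7 CPM in control replicates 1, 2 and 3. The ranges of the groups were nearly the same, and the log2 fold change was 0.06 ± 0.25 (SE; 95% interval -0.53 to 0.64, edgeR adjusted p = 1). Its highest library held 1.69 times its lowest, the narrowest span among the members, while Ifng spanned 3.76 times.

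Ifngr1 (ENSMUSG00000020009, chr10:19591949-19610229) encodes the chain of the IFN-gamma receptor that binds the cytokine. It had 1390, 863 and 924 CPM in Ythdf2 cKO replicates 1, 2 and 3, against 616, 1161 and 826 CPM in control replicates 1, 2 and 3. Control replicate 2 lay above 2 libraries labelled Ythdf2 cKO, and the log2 fold change was 0.29 ± 0.29 (SE; 95% interval -0.39 to 0.97, edgeR adjusted p = 1), or 0.037 without Ythdf2 cKO replicate 1. The receptor gene thus differed by less than the spread between replicates.

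Stat4 (ENSMUSG00000062939, chr1:51987148-52107189), the signal transducer of IL-12, had 128, 86.7 and 54.5 CPM in Ythdf2 cKO replicates 1, 2 and 3, against 55.5, 103 and 62.2 CPM in control replicates 1, 2 and 3. As for Il12rb1, the highest and the lowest library both carried the Ythdf2 cKO label. The log2 fold change was 0.28 ± 0.35 (SE; 95% interval -0.54 to 1.11, edgeR adjusted p = 1), and without Ythdf2 cKO replicate 1 it was -0.06.

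Tbx21 (ENSMUSG00000001444, chr11:97098071-97115331), which encodes T-bet, had 68.1, 33.9 and 37.7 CPM in Ythdf2 cKO replicates 1, 2 and 3, against 32.0, 60.2 and 30.6 CPM in control replicates 1, 2 and 3. In each group 1 library from cage 1 stood apart above the other two. The means were 46.6 ± 18.8 CPM in Ythdf2 cKO-labelled libraries and 40.9 ± 16.7 CPM in the controls (SD, n = 3 each). The log2 fold change was 0.18 ± 0.37 (SE; 95% interval -0.68 to 1.04, edgeR adjusted p = 1), and it was -0.20 without Ythdf2 cKO replicate 1. Eomes (ENSMUSG00000032446, chr9:118478212-118486132), the related factor better known from CD8 T and NK cells, was near its detection limit, with 1, 1 and 8 reads in Ythdf2 cKO replicates 1, 2 and 3 and 0, 2 and 2 reads in control replicates 1, 2 and 3. Summed and scaled to depth, the 10 reads of the libraries labelled Ythdf2 cKO against 4 in the controls gave a ratio of 3.11, with an exact 95% counting interval from 0.896 to 13.6 that covers counting error only. No difference in Eomes was detectable at this depth, and 8 of the 10 reads came from 1 library.

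Some of these counts could hold reads of other genes or lack reads of their own. The strand setting of the counting is not given in the sources used here, and reads marked as ambiguous, 1.43% to 2.21% of records, were left out. The exons of Il12rb2 overlap those of Serbp1 on the other strand over 1519 bases, 40.04% of its exon length. Stat4 shares 1033 bases with Gm28177 and Ifng 336 bases with Gm49751 on the same strand, and Eomes shares 118 bases with the antisense gene Gm33460. The values of these 4 members are uncertain to that extent.

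The groups were also set side by side within each cage. In cage 1 the single library labelled Ythdf2 cKO was above both controls for 7 of the 8 tested members, all but Il12rb2, a pattern that 36.2% of all genes tested showed. In cage 2 both libraries labelled Ythdf2 cKO were above the single control for 4 members, Tbx21, Il12rb2, Il18r1 and Ifngr1, against 34.4% of all genes. Tbx21, Il18r1 and Ifngr1 did so in both cages, against 14.5% of all genes. The within-cage difference of the Tbx21 means, on a log2 scale with 0.5 CPM added, was 0.22 in cage 2 and 0.56 in cage 1, for Il18r1 it was 0.34 in cage 2 and 0.65 in cage 1, and for Ifngr1 0.11 in cage 2 and 0.65 in cage 1. For Ifng it was 0.79 in cage 2 and 1.21 in cage 1, and for Il12rb2 0.88 in cage 2 and 0.22 in cage 1.

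With cage as a term, the fitted differences of 7 of the 8 members were larger, but none passed the adjusted threshold. In that fit 0 of 13172 genes (0%) had an adjusted p under 0.05 (edgeR quasi-likelihood test), and the members had a median of 0.42, against -0.04 for all genes, 46.3% of which lay above 0. Il18r1 had a log2 fold change of 0.50 ± 0.19 (SE; 95% interval 0.081 to 0.92, edgeR unadjusted p = 0.024, adjusted p = 0.45). It was the 1 member with an unadjusted p under 0.05, a mark that 568 genes (4.31%) reached in the higher direction. Il12rb1 stood at 0.39 (edgeR adjusted p = 0.50), Tbx21 at 0.40 (adjusted p = 0.58), Stat4 at 0.44 (adjusted p = 0.56) and Ifng at 1.08 (adjusted p = 0.53). Il12rb2, at 0.57, was the member whose difference was smaller with the cage term than without it. Marker lists shifted in this fit too. All 15 melanoma markers were below 0 (median -1.51, 13 with an unadjusted edgeR p under 0.05). So were all 11 tested macrophage and monocyte markers (median -2.48, 5 with an unadjusted edgeR p under 0.05). All 7 Treg markers were above 0 (median 0.22). The 3 tested dendritic cell markers (median 1.01, 1 with an unadjusted edgeR p under 0.05) and the 4 tested B cell markers (median 1.01) were also all above 0. Of the 5 tested NK markers 2 were above 0 and 3 below (median -0.94). Of the 2 CD8 markers 1 was above 0 and 1 below.

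Levels of other cells' markers in each group are given here, and their part in these values was not tested. The 15 melanoma markers summed to 63.4 to 4091 CPM in Ythdf2 cKO-labelled libraries and to 444 to 6041 CPM in the controls. The 7 dendritic cell markers summed to 32.2 to 43.9 CPM in Ythdf2 cKO-labelled libraries and to 17.4 to 28.3 CPM in the controls. These sums did not overlap, as single genes did in that direction in 3.4% of all genes tested. Zbtb46 made up most of each sum and did overlap, at 22.6 to 37.7 CPM in Ythdf2 cKO-labelled libraries and 12.0 to 25.3 CPM in the controls. The 12 macrophage and monocyte markers summed to 6.22 to 124 CPM in Ythdf2 cKO-labelled libraries and to 18.5 to 286 CPM in the controls, and the 6 B cell markers to 13.2 to 18.8 CPM in Ythdf2 cKO-labelled libraries and 5.12 to 14.8 CPM in the controls. No marker of the dendritic cell, macrophage and B cell lists was at 0 in all 6 libraries. Of these, 3 dendritic cell, 11 macrophage and monocyte and 4 B cell markers were tested, and none passed the adjusted threshold between the groups (edgeR). In bulk samples fewer cells of a type and less RNA per cell cannot be told apart.

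**Figure D2:**
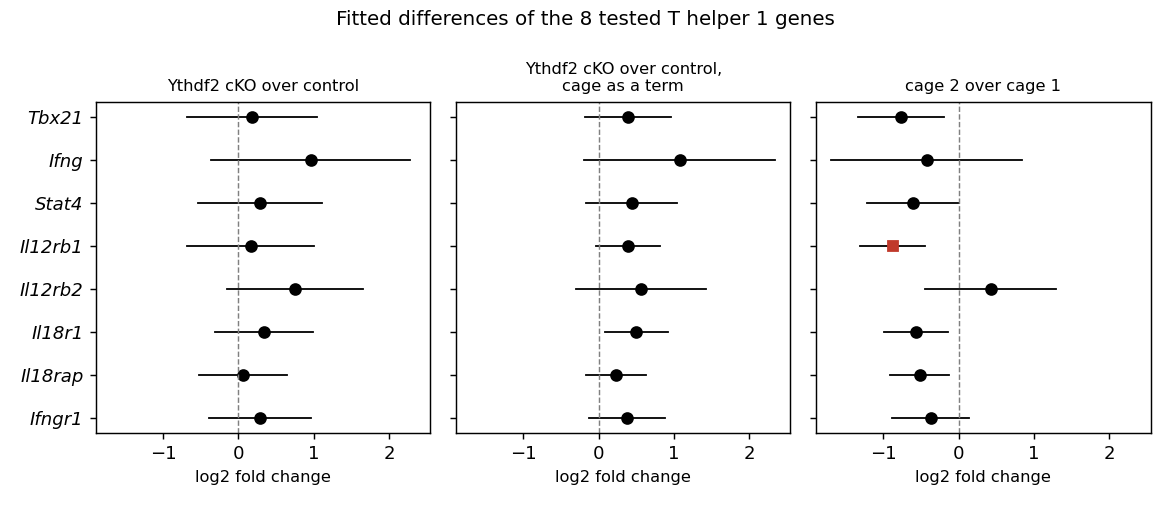
Log2 fold change (x axis) of the 8 tested T helper 1 genes (y axis) with its 95% interval, for Ythdf2 cKO over control, for the same with cage as a term, and for cage 2 over cage 1. In the left panel all 8 points lie above 0 with intervals that cross it, and in the right panel 7 lie below 0, with Il12rb1 (-0.88, red square) the 1 member past the adjusted threshold.

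Between the cages 7 of the 8 fitted differences of the members were below 0, meaning lower values in cage 2, with a median of -0.54, against 0.01 for all genes tested. Il12rb1 alone passed the threshold, while edgeR called 1516 genes (11.5%), 485 (3.68%) of them lower and 1031 (7.83%) higher in cage 2. Scaled by total counts the split was 732 lower and 646 higher, with the median of all genes at -0.32, and scaled to the Treg markers it was 16 lower and 4337 higher. Il12rb1 had 50.5 and 38.9 CPM in Ythdf2 cKO replicates 2 and 3 and 40.4 CPM in control replicate 3 of cage 2, against 96.6 CPM in Ythdf2 cKO replicate 1 and 56.7 and 68.4 CPM in control replicates 1 and 2 of cage 1. It was the 1 member whose cages did not overlap, as 12.2% of all genes did in that direction. The means were 43.3 ± 6.28 CPM in cage 2 and 73.9 ± 20.5 CPM in cage 1 (SD, n = 3 each), a log2 fold change of -0.88 ± 0.19 (SE; 95% interval -1.30 to -0.45, edgeR adjusted p = 0.020). With the melanoma markers as a covariate it was 0.12 (edgeR adjusted p = 0.97), and that fit called 3 genes and 0 members. The call was also lost without Ythdf2 cKO replicate 1 (log2 fold change -0.64, edgeR adjusted p = 0.22), without Ythdf2 cKO replicate 3 (-0.76, adjusted p = 0.066) and without control replicate 2 (-0.85, adjusted p = 0.066).

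Tbx21, Il18r1 and Il18rap had adjusted p-values between 0.05 and 0.1 in the same direction. Tbx21 averaged 34.1 ± 3.54 CPM in cage 2 and 53.4 ± 19.0 CPM in cage 1 (SD, n = 3 each), a log2 fold change of -0.76 ± 0.25 (SE; edgeR adjusted p = 0.089). Il18r1 averaged 171 ± 28.4 CPM in cage 2 and 230 ± 76.7 CPM in cage 1 (SD, n = 3 each; log2 fold change -0.57, edgeR adjusted p = 0.087), and Il18rap had a log2 fold change of -0.52 (adjusted p = 0.095). With Il12rb1, 4 of 8 members had an unadjusted p under 0.05 and a lower value in cage 2, as did 1510 genes (11.5%). Stat4 stood at -0.61 (edgeR adjusted p = 0.19), Ifng at -0.42 (adjusted p = 0.68) and Ifngr1 at -0.37 (adjusted p = 0.34). Il12rb2 was the exception in sign, with 19.8 ± 6.53 CPM in cage 2 and 12.4 ± 4.65 CPM in cage 1 (SD, n = 3 each), a log2 fold change of 0.43 ± 0.39 (SE; edgeR adjusted p = 0.53).

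The Treg markers moved with the cage as well. Their summed level was 3404 to 4706 CPM in cage 2 and 5552 to 6289 CPM in cage 1, and 5 of the 7 were called lower in cage 2 (edgeR), among them Foxp3 (log2 fold change -0.65, adjusted p = 0.0091). All 15 melanoma markers were called higher in cage 2, with sums of 2984 to 6041 CPM there and 63.4 to 630 CPM in cage 1. The 12 macrophage and monocyte markers summed to 19.1 to 286 CPM in cage 2 and to 6.22 to 55.4 CPM in cage 1, and 6 of the 11 tested were called higher. Scaled to the 7 Treg markers, a scaling chosen after the data were seen, the cage median was 0.07 for the members and 0.63 for all genes, and edgeR called 0 members. On that scale 5 of 8 members were above 0 and Il12rb1 had a log2 fold change of -0.27 (edgeR adjusted p = 0.31), while the genotype median of the members stayed above 0, at 0.24. The 3 libraries of cage 2 held a smaller share of Treg marker RNA and a larger share of tumour marker RNA, beside their lower Il12rb1 level. The Il12rb1 call held neither with Treg marker scaling nor with the melanoma covariate. That scaling raised the cage differences of genes in general, and the melanoma markers separate the cages. Neither fit can therefore tell cell composition and cage apart, and the part of composition in the Il12rb1 level was not tested.

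**Figure D3:**
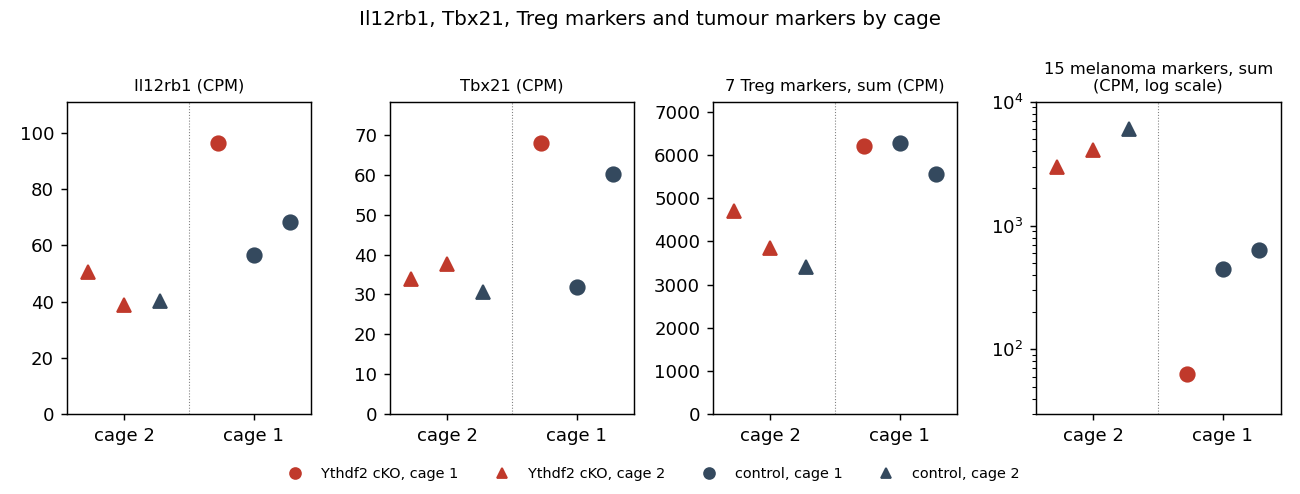
Il12rb1 and Tbx21 (CPM), the sum of the 7 Treg markers (CPM) and the sum of the 15 melanoma markers (CPM, log axis) in each library, with cage 2 left and cage 1 right, red for Ythdf2 cKO and dark for control. Cage 2 lies below cage 1 without overlap for Il12rb1 and the Treg markers and above it for the melanoma markers (2984 to 6041 against 63.4 to 630 CPM), while the Tbx21 cages overlap because control replicate 1 of cage 1 had 32.0 CPM.

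Whether the genotype difference itself varied between cages was tested with a group by cage term, which left 2 residual degrees of freedom. None of the 8 members passed the adjusted or the unadjusted threshold of 0.05 in the edgeR quasi-likelihood test, where 6 genes (0.0456%) passed the adjusted one, 1882 (14.3%) the unadjusted one, and DESeq2 called 64 genes. The smallest p among the members was that of Il12rb1, at 0.20 unadjusted and 0.56 adjusted (edgeR), with a difference of -0.48 ± 0.35 (SE) between the log2 fold changes. In 2 combinations of group and cage there is 1 library, and those libraries are assumed to vary like the others.

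The level of the whole set also varied from library to library within each label. Centred over the 6 libraries on the log2 scale, the mean of the 8 tested members was 0.59, 0.18 and -0.24 in Ythdf2 cKO replicates 1, 2 and 3, against -0.46, 0.30 and -0.36 in control replicates 1, 2 and 3. Ythdf2 cKO replicate 1 was the highest and control replicate 1 the lowest, and both came from cage 1. The highest library was also the shallowest, with 5602053 gene counts, and its 15 melanoma markers summed to 63.4 CPM, the lowest of the 6. It also had the largest share of records in no gene, 35.8%, against 24.6% to 30.6% in the others.

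Levels can be set side by side between genes only per length, here as CPM per kilobase of all exons. By the mean of the 6 libraries Ifngr1 was the highest, at 338 ± 95.8 CPM per kilobase (SD, n = 6), followed by Il18r1 at 41.7 ± 12.6, Stat4 at 21.1 ± 7.66 and Tbx21 at 17.6 ± 6.51. Il18rap at 15.05 ± 3.36 and Il12rb1 at 14.3 ± 5.26 came next, then Ifng at 5.32 ± 3.11, Il12rb2 at 4.24 ± 1.71 and Eomes at 0.0618 ± 0.0720 CPM per kilobase. The levels of Ifngr1 over Il18r1, Il18r1 over Stat4, Il12rb1 over Ifng and Il12rb2 over Eomes held in 6 of 6 libraries. Stat4, Tbx21, Il18rap and Il12rb1 were within their spread of each other, with neighbours in the same order in 4 or 5 of 6 libraries, and so were Ifng and Il12rb2, in the same order in 5 of 6. Taken per kilobase of the longest transcript, Il18rap (20.8) and Il12rb1 (20.4) stood above Tbx21 (17.6), so the order among these 3 depends on the length used. The chains of the IL-12 receptor differed in level, with Il12rb1 above Il12rb2 in every library. Serbp1 overlaps 40.04% of the exon length of Il12rb2, so its level per kilobase and its place beside Il12rb1 and Ifng are uncertain.

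**Figure D4:**
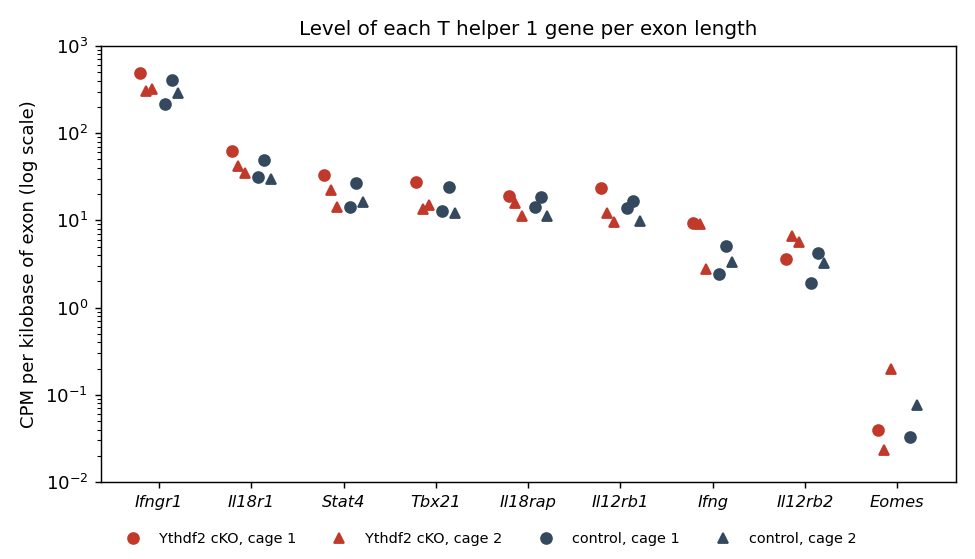
Level of each T helper 1 gene in CPM per kilobase of exon (log axis) in every library, red for Ythdf2 cKO to the left and dark for control to the right, circles for cage 1 and triangles for cage 2. Ifngr1 (338 on average) stands above all others and Eomes (0.0618) below all others, and control replicate 1, with 0 reads of Eomes, has no point there.

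The tested genes most like Tbx21 in profile, by the root mean square difference of centred log2 CPM over the 6 libraries, were Slc16a6 (0.10), Bet1l (0.11) and Olfr56 (0.11), where the Tbx21 profile itself had a root mean square of 0.45. Slc16a6 had 86.8, 46.1 and 53.1 CPM in Ythdf2 cKO replicates 1, 2 and 3, against 47.7, 77.8 and 36.9 CPM in control replicates 1, 2 and 3. Those most like Ifng were Btk (0.12), Reck (0.26) and Smim27 (0.30), against 0.74 for Ifng itself. Btk, a kinase of B cell receptor signalling, had 2.46, 1.83 and 0.519 CPM in Ythdf2 cKO replicates 1, 2 and 3, against 0.442, 1.22 and 0.631 CPM in control replicates 1, 2 and 3, low values from few reads.

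The other genes of the pathway were taken from 5 lists, and none of their members passed the threshold between the groups. Of 8 ligands and decoys, 3 had enough reads to be tested, 1 with a fitted difference above 0 and 2 below (median -0.01). Ebi3, a subunit shared by IL-27 and IL-35, had 30.1, 29.6 and 25.02 CPM in Ythdf2 cKO replicates 1, 2 and 3, against 34.5, 36.6 and 13.7 CPM in control replicates 1, 2 and 3. The groups overlapped, and its log2 fold change was -0.01 (edgeR adjusted p = 1). Il15, a cytokine of NK and memory T cells, and Il18bp, the decoy that binds IL-18, stayed at or below 4.05 CPM in every library.

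Of the 16 receptor and signal partners all were tested, with 10 above 0 and 6 below (median 0.04). Socs3, a feedback inhibitor of cytokine receptors, had 143, 77.7 and 78.5 CPM in Ythdf2 cKO replicates 1, 2 and 3, against 85.4, 55.5 and 63.9 CPM in control replicates 1, 2 and 3. Only control replicate 1 overlapped the other group, and the log2 fold change was 0.54 ± 0.29 (SE; edgeR adjusted p = 1), or 0.19 without Ythdf2 cKO replicate 1. Irak2, a kinase downstream of the IL-18 receptor, stood at 0.26 and Tyk2, a kinase of the IL-12 receptor, at -0.21 (edgeR adjusted p = 1 for both). Il2rb, the receptor chain shared by IL-2 and IL-15, was called lower in cage 2, as were 3.68% of all genes tested. It was the 1 gene of this list past the threshold there. Scaled to the Treg markers it stood at 0.04, where the median of all genes was 0.63. Il2rb had 706 and 594 CPM in Ythdf2 cKO replicates 2 and 3 and 536 CPM in control replicate 3 of cage 2, against 954 CPM in Ythdf2 cKO replicate 1 and 746 and 872 CPM in control replicates 1 and 2 of cage 1. The cages did not overlap, as in 12.2% of all genes tested in that direction, among them Jak1, Tyk2 and Il27ra of this list. The log2 fold change of Il2rb was -0.57 ± 0.13 (SE; edgeR adjusted p = 0.023). The call was lost without Ythdf2 cKO replicate 1 (edgeR adjusted p = 0.11), Ythdf2 cKO replicate 3 (0.10), control replicate 2 (0.071) or control replicate 3 (0.092).

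Of 12 transcriptional partners 10 were tested, 7 above 0 and 3 below between the groups (median 0.09), and 1 was called higher and 2 lower in cage 2, against 7.83% and 3.68% of all genes tested. Prdm1, which encodes Blimp-1, had 210, 141 and 140 CPM in Ythdf2 cKO replicates 1, 2 and 3, against 145, 135 and 116 CPM in control replicates 1, 2 and 3. Control replicate 1 alone lay above 2 libraries labelled Ythdf2 cKO, and the log2 fold change was 0.31 ± 0.20 (SE; edgeR adjusted p = 1), or 0.083 without Ythdf2 cKO replicate 1. Irf1, a transcription factor induced by IFN-gamma, stood at 0.29 and Batf, a factor of effector Treg cells, at -0.23 (edgeR adjusted p = 1 for both). Runx1 (log2 fold change -0.51, edgeR adjusted p = 0.025) and its binding partner Cbfb (-0.52, adjusted p = 0.031) were lower in cage 2. Scaled to the Treg markers they stood at 0.11 and 0.09, where the median of all genes was 0.63. Cbfb lost its call without any 1 of the 6 libraries, with edgeR adjusted p from 0.050 to 0.22, and Runx1 without any but control replicate 1, with adjusted p from 0.058 to 0.16. Zeb2, a repressor that acts with T-bet in T cells, was higher there, with 89.0 and 172 CPM in Ythdf2 cKO replicates 2 and 3 and 171 CPM in control replicate 3 of cage 2, against 39.3 CPM in Ythdf2 cKO replicate 1 and 60.1 and 71.9 CPM in control replicates 1 and 2 of cage 1. Its log2 fold change was 1.54 ± 0.25 (SE; edgeR adjusted p = 0.0058), and without Ythdf2 cKO replicate 1 it was 1.36 (adjusted p = 0.061). Macrophages also express Zeb2, and the 12 macrophage and monocyte markers summed to 19.1 and 124 CPM in Ythdf2 cKO replicates 2 and 3 and 286 CPM in control replicate 3 of cage 2, against 6.22 CPM in Ythdf2 cKO replicate 1 and 18.5 and 55.4 CPM in control replicates 1 and 2 of cage 1. Their part in the Zeb2 values was not tested. With the melanoma covariate Il2rb, Runx1, Cbfb, Zeb2 and Lta were not called either (edgeR adjusted p from 0.74 to 0.97). The melanoma markers move with the cage, and that fit called 3 of 13172 genes, so it cannot tell the markers and the cage apart.

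Of 16 effector and homing genes 14 were tested, 7 above 0 and 7 below between the groups (median -0.07). Csf2, which encodes the cytokine GM-CSF, had 12, 22 and 1 reads in Ythdf2 cKO replicates 1, 2 and 3, against 46, 48 and 35 reads in control replicates 1, 2 and 3, or 1.97, 2.12 and 0.104 CPM against 4.06, 3.25 and 5.52 CPM. The groups did not overlap, as in 4.22% of all genes tested in that direction, and its log2 fold change of -1.61 ± 0.95 (SE) did not pass the threshold (edgeR adjusted p = 1). Gzmb, a granule protease, had a log2 fold change of -0.53 and Cxcr3, the chemokine receptor that marks T-bet-positive cells, of 0.47 (edgeR adjusted p = 1 for both). Without control replicate 1, which had 28.4 CPM of Cxcr3 and 556 CPM of Gzmb, Cxcr3 stood at 0.098 and Gzmb at 0.0063. Lta, which encodes lymphotoxin alpha, was lower in cage 2, with 3.09 and 5.19 CPM in Ythdf2 cKO replicates 2 and 3 and 6.63 CPM in control replicate 3, against 24.4 CPM in Ythdf2 cKO replicate 1 and 22.4 and 7.85 CPM in control replicates 1 and 2 of cage 1 (log2 fold change -1.89 ± 0.51, SE; edgeR adjusted p = 0.044). Lta was the 1 gene of this list called there, against 3.68% of all genes tested called lower. It lost that call without control replicate 1 or any library labelled Ythdf2 cKO, with edgeR adjusted p from 0.11 to 0.40, and its log2 fold change was -1.19 without Ythdf2 cKO replicate 1.

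Of 18 genes known to respond to IFN-gamma 16 were tested, 10 above 0 and 6 below between the groups (median 0.09). The GTPase genes Igtp (log2 fold change 0.40) and Irgm2 (0.29) and the factor Irf1 (0.29) had the smallest unadjusted p in the list, and none passed the threshold (edgeR adjusted p = 1 for each). Igtp stood at 0.13 and Irf1 at -0.16 without Ythdf2 cKO replicate 1, and Irgm2 at 0.058 without control replicate 1. Igtp had 269, 185 and 149 CPM in Ythdf2 cKO replicates 1, 2 and 3, against 123, 179 and 153 CPM in control replicates 1, 2 and 3, and the groups overlapped. In cage 2 the list had 13 genes below 0 and 3 above (median -0.33), with 0 called by edgeR and 6 lower at an unadjusted p under 0.05, against 11.5% of all genes tested.

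**Figure D5:**
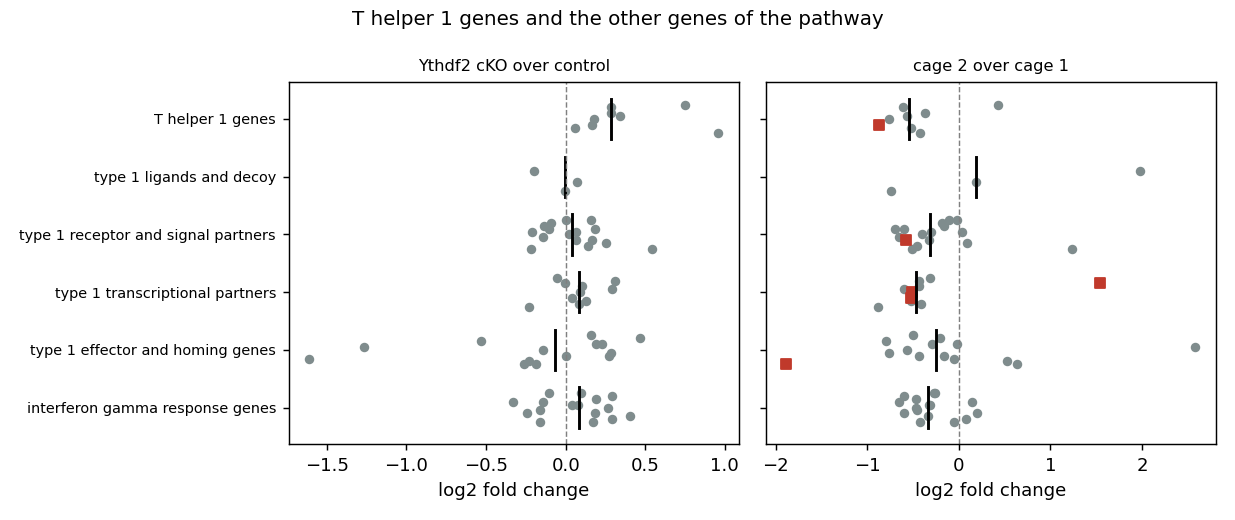
Log2 fold change (x axis) of every tested gene in the T helper 1 set and the 5 other pathway lists (y axis), for Ythdf2 cKO over control (left) and cage 2 over cage 1 (right), with a black line at each list's median and red squares for genes past the adjusted threshold of 0.05. No square appears on the left, where the T helper 1 genes have a median of 0.29, and on the right the squares are Il12rb1, Il2rb, Runx1, Cbfb, Zeb2 and Lta.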

How the data were processed

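The library kit was the stranded SMARTer kit for total RNA (v2), as the labels' protocols state. For each of the 6, the authors deposited a table of raw read counts per gene. The submitters' processing notes name Trimmomatic 0.39, HISAT2 2.1.0 and HTSeq, with the build mm10. Which annotation release was used is not given in the sources used here. Symbols and coordinates came from GENCODE M21 (54409 of 54446 rows matched). Reads in no gene, 24.6% to 35.8% of records, were left out. Every pair of libraries differed beyond sampling noise (lowest chi-square per degree of freedom 17.4).

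Counts were filtered with filterByExpr (minimum count 10, total 15) and scaled by TMM. The main test was the quasi-likelihood test of edgeR 4.0.16 (R 4.3.3) on all 6 libraries, with Benjamini-Hochberg adjustment over 13172 genes and a threshold of 0.05. Terms were group, group with cage, and their interaction. Alternatives were DESeq2 1.42.0, limma-voom 3.58.1, other scalings, filters and covariates, and each library left out. Members and lists were chosen with earlier results of these data known. All 9 members are named. From each other list the 3 tested genes with the smallest genotype p are named, with any past the threshold. For Tbx21 and Ifng the 3 most similar genes are named.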

Additional observations from a re-analysis of the deposited data

How the results depend on the processing

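Under every alternative run, edgeR, DESeq2 and limma-voom called 0 of the T helper 1 genes between the groups, and 0 genes in all except 33 with no low-count filter (7 lower and 26 higher in the libraries labelled Ythdf2 cKO). Ifng, Il12rb2, Il18r1 and Ifngr1 had a log2 fold change above 0 in each of the 17 alternatives, but with 1 library left out it ranged from 0.71 to 1.33 for Ifng, 0.49 to 1.04 for Il12rb2, 0.054 to 0.59 for Il18r1 and 0.037 to 0.55 for Ifngr1. Leaving out each library gave -0.20 to 0.56 for Tbx21, -0.063 to 0.60 for Stat4, -0.31 to 0.40 for Il12rb1 and -0.13 to 0.25 for Il18rap. The same ranges were -0.16 to 0.023 for Ythdf2, -0.29 to 0.42 for Il18bp, -0.31 to 0.21 for Ebi3, -0.50 to 0.27 for Batf, -0.77 to 0.0063 for Gzmb, -0.33 to 0.016 for Tyk2, -0.97 to 0.35 for Il15, -0.16 to 0.50 for Irf1, 0.19 to 0.73 for Socs3, 0.083 to 0.40 for Prdm1, 0.13 to 0.42 for Irak2, 0.13 to 0.57 for Igtp, 0.058 to 0.48 for Irgm2, 0.098 to 0.77 for Cxcr3 and -2.10 to -1.06 for Csf2. Il12rb1 stood at -0.0066 in limma-voom, Ythdf2 at 0.021 with total counts as scaling, and Batf at 0.13 with cage as a term. Ebi3, near 0, turned sign with DESeq2 (0.011), RLE scaling (0.012), total counts (0.047), a mean CPM of at least 5 (0.0096), the melanoma markers as a covariate (0.023), cage as a term (0.35), the replicate block (0.11) and Treg marker scaling (0.10). Libraries with the same replicate number share only that number (correlations of their deviations 0.41, -0.24 and 0.55). With the replicate number as a block, edgeR called 0 genes and 0 members, the members' median was 0.27, and Il12rb2 had an unadjusted p = 0.032 (adjusted p = 1).

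Between the cages, the genes called numbered 2349 with DESeq2, 2347 with no filter, 849 with no group term, 4353 with Treg marker scaling, 3 with the melanoma markers as a covariate and 660 to 1234 with 1 library left out. The members called numbered 2 with DESeq2, 3 with total counts, 6 with no filter, 0 with the melanoma markers, no group term or Treg marker scaling, 4 at an unadjusted p under 0.05, 4 at an adjusted p under 0.1 and 0 to 5 with 1 library left out. With the melanoma markers, which move with the cage, Ifng stood at 0.78, Stat4 at 0.34, Il12rb1 at 0.12, Il12rb2 at -1.19, Ifngr1 at 0.28 and Lta at 1.14. With Treg marker scaling Ifng stood at 0.16, Il18r1 at 0.045, Il18rap at 0.088, Ifngr1 at 0.25, Il2rb at 0.036, Runx1 at 0.11 and Cbfb at 0.093. The median of all genes in that fit was 0.63. For the group by cage term, 64 genes were called with DESeq2, 30 with total counts and 2 to 16 with 1 library left out, with 0 members in each. Except for sign changes made by the scaling itself, the cause was not tested. Treg marker scaling, and leaving out libraries for the group by cage term, were chosen after seeing the data. Depth limits Eomes, Csf2, Il15 and Btk, with at most 48 reads of each in any library.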
